A study of Homo sapiens with 11 samples.

Results

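The transcription factors that set urothelial and luminal identity were examined in RT4 cells, a line derived from a human bladder papilloma. The set was given as 9 gene symbols, PPARG, RXRA, GATA3, FOXA1, ELF3, KLF5, TP63, OVOL1 and POU2F3, and every probe with one of these as its single symbol was taken. This found 8 of the 9 genes on 9 probes, out of 14941 genes named by 17043 of the 22464 probes on the array. POU2F3 had 2 probes and each other gene had 1. TP63 was not analysed here, since none of the probes carried its symbol.

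RNA had been measured on 11 one-color spotted arrays. The groups were RT4 cells grown on plastic (2 arrays) and RT4 cells transferred from plastic onto Matrigel, a cancer-remodeled extracellular matrix abbreviated crECM (9 arrays). The crECM arrays were taken at 12 h and on days 1, 2, 3, 4, 6, 7, 8 and 9, with 1 array at each time. Cells on crECM lay on a gel in a culture insert, in medium with fetal calf serum, and were released from the gel with a matrix-dissolving reagent before RNA isolation. The cells were not genetically altered, both groups came from 1 cell line, and the labels do not say whether the 2 plastic arrays came from separate cultures. The p-values below therefore measure only the spread between these arrays.

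The urothelium is built from basal cells, intermediate cells and umbrella cells, and its luminal layers carry a shared set of transcription factors. PPARG, a nuclear receptor for fatty acid ligands, binds DNA as a dimer with RXRA, and the pair is known for driving urothelial differentiation together with the zinc finger factor GATA3 and the pioneer factor FOXA1. ELF3, an epithelial ETS factor, and KLF5, a Krüppel-like zinc finger factor, act in the same programs. TP63 is the factor of the basal layer, OVOL1 a zinc finger transcriptional repressor of differentiating epithelial cells, and POU2F3 an octamer-binding POU factor known from tuft cells and squamous epithelia.

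The factors are linked by the short DNA cores they bind, so the RefSeq promoter windows of the members (GRCh38.p14, 250 bases before to 50 after a start site) were searched on both strands for 10 cores. These were AGGTCA for PPARG and RXRA, AGATAA and TGATAA for GATA factors, TGTTTAC and TATTTAC for FOXA factors, AGGAAG for ETS factors, CCCCACCC and GGGCGTG for KLF factors, CCGTTA for OVOL1 and ATGCAAAT for POU2 factors. The table held 19 windows for 7 of the members, PPARG, RXRA, GATA3, FOXA1, ELF3, KLF5 and TP63. A set of 3 windows is printed as examples that hold the cores of other members or of the gene itself. Other windows of PPARG, and windows of RXRA and GATA3, also held such cores. Capitals mark the matches to a core.
PPARG, chr3:12287118-12287417, plus strand: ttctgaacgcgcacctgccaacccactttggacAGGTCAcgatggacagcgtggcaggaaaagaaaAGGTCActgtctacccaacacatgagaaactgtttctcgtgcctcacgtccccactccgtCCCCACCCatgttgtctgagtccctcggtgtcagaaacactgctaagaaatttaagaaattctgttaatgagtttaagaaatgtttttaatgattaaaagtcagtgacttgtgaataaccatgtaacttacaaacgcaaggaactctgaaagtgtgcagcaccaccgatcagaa
PPARG, chr3:12301725-12302024, plus strand: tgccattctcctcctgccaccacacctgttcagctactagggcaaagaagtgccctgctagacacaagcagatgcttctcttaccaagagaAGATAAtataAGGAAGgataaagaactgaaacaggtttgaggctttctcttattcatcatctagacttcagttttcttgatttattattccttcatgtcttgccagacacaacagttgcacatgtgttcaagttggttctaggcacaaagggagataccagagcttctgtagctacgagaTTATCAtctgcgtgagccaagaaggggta
ELF3, chr1:202010337-202010636, plus strand: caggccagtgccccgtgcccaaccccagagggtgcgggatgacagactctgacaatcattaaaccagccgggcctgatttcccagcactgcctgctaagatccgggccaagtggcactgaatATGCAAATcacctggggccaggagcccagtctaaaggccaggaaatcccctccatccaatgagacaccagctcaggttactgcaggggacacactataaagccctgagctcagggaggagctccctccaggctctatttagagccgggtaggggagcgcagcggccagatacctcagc

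The first PPARG window held AGGTCA, the half-site of PPARG and RXRA dimers, at 2 places, and the KLF core CCCCACCC. The second held both GATA cores, one of them on the minus strand and read as TTATCA, and the ETS core AGGAAG. The ELF3 window held the octamer ATGCAAAT, which was present in 1.77% of all 35116 windows. AGGTCA was present in 13.8% of all windows, AGATAA in 10.3%, TGATAA in 7.53%, AGGAAG in 33.6% and CCCCACCC in 11.1%. Among the 19 windows of the members AGGTCA was present in 3, all of PPARG, of which a pair overlapped each other. AGGAAG was present in 5 of the 19, CCCCACCC in 3, TGATAA in 2, and AGATAA and ATGCAAAT in 1 each. Neither FOXA core (3.42% of all windows for TGTTTAC and 2.67% for the other) nor the OVOL1 core (3.07%) was found in the 19, and GGGCGTG, present in 8.68% of all windows, was found in 1. These matches describe the letters of the windows, and no binding was measured.

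Expression was given by the authors as log10 of the distance above the noise peak, counted in SDs of that peak and adjusted between arrays. Values are written here as noise SDs on the linear scale, and 3 SD was taken as the limit of detection. The noise peak of the raw intensities lay at 28.5 and 29.25 units on plastic and at 29.75 to 63.75 units on crECM. The raw median intensity was 162 and 140.45 on plastic and 224 to 482 on crECM, so brightness and substrate cannot be told apart. Between 83.9% and 86.6% of the probes lay above 3 SD on each array. Each of the 6 epithelial markers on the array (CDH1, EPCAM, KRT7, KRT18, KRT19 and CLDN4) was above 3 SD on every array. Of the 4 urothelial markers UPK1A and UPK2 were above 3 SD on every array, whereas UPK1B was above it on 1 of 2 plastic arrays and none of the 9 crECM arrays, and UPK3A on 2 and 5. Of 23 markers of stroma, endothelium and blood, 18 were above 3 SD on both plastic arrays and 18 on all 9 crECM arrays. On plastic COL3A1, THY1, KDR, HBB and PTPRC, of stroma, endothelium and blood, had 51.1, 44.5, 43.3, 41.4 and 33.3 SD (geometric means of 2 arrays). Values in the range of the members were thus also found for genes that an epithelial line should lack, and a value above 3 SD was not read as expression on its own.

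PPARG, RXRA, GATA3, FOXA1, ELF3 and KLF5 were above 5 SD on all 11 arrays, as were 69.2% of all probes. OVOL1 and POU2F3 crossed the 3 SD limit on some arrays only. The relative SD of these 6 factors over the 11 arrays was 12.1% to 21.0%. Each lay under 30.1%, which was 3 SD above the mode of all expressed probes and which 35.0% of the 20138 expressed probes exceeded.

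**Figure D1:**
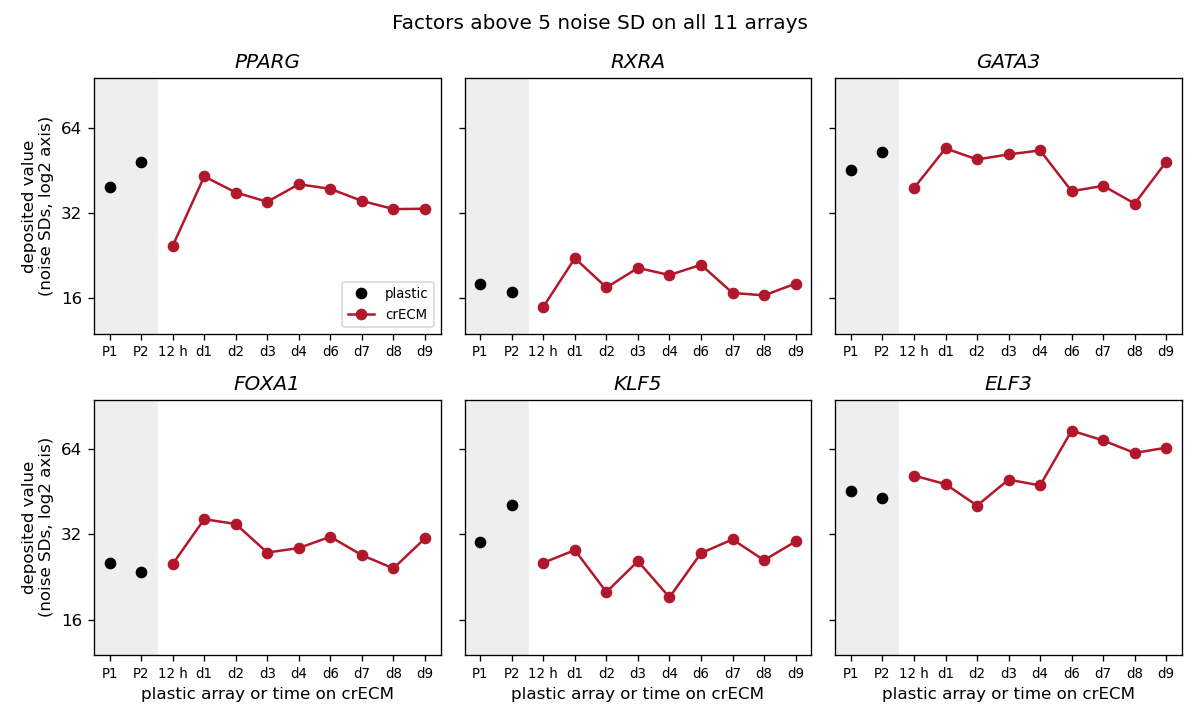
Deposited value of the 6 factors above 5 noise SDs on all 11 arrays, in noise SDs on a log2 axis, against the array (P1 and P2 on plastic, then time on crECM, evenly spaced with no array on day 5). Each point is 1 array. PPARG is lowest at 12 h with 24.5 SD, and ELF3 lies between 62.2 and 74.6 SD from day 6 on.

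PPARG was at 39.5 and 48.7 SD on the plastic arrays, and on crECM it ranged from 24.5 SD at 12 h over a median of 35.4 SD to 43.2 SD on day 1. The 12 h array was the low one, followed by days 8 and 9 with 33.1 and 33.2 SD. On crECM 7 of the 9 arrays lay below both plastic arrays and the other 2 lay between them. Between plastic and crECM the log2 difference was -0.31 (SE 0.17, 95% interval -0.69 to 0.06, n = 2 and 9), which did not pass the test (limma, Benjamini-Hochberg adjusted p = 0.16). In bulk RNA, fewer cells expressing a gene and less of its RNA per cell cannot be told apart.

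Within crECM, the log2 difference of PPARG at 12 h from the mean of days 1 to 9 was -0.59, a 1.51-fold lower value (SE 0.14, 95% interval -0.92 to -0.27, n = 1 and 8, limma, adjusted p = 0.047). The call rests on 1 array. In this comparison 6.23% of all probes were called, 3.54% higher and 2.69% lower at 12 h, and PPARG was the only called probe of the 9. The 12 h array was assumed to vary like the later ones. The adjusted p of PPARG ranged from 0.0048 to 0.065 over the alternatives. It no longer passed with a floor of 5 SD (0.055), with no floor (0.053), with a stricter filter (0.065) or without the day 7 array (0.061), and the log2 difference was -0.58 to -1.21 throughout. The 12 h array also had the lowest raw median intensity of the crECM arrays, 224, and its part in this difference was not tested. When each later day was set against the other crECM days in the same way, none of the 9 probes was called on any day by limma, and 3 of these 72 tests had an unadjusted p under 0.05 (KLF5 on day 4, OVOL1 and the first POU2F3 probe on day 9). These fits called 0.456% of all probes on day 1, 0.838% on day 2, 1.78% on day 3, 0.787% on day 4, 0.731% on day 6, 1.4% on day 7, 0.298% on day 8 and 0.484% on day 9.

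RXRA, the partner of PPARG, was at 18.0 and 16.8 SD on plastic and at 14.9 SD (12 h), 18.0 SD (median) and 22.2 SD (day 1) on crECM, so the plastic arrays lay inside the crECM range. In raw noise SDs above the peak, however, RXRA was at only 2.47 and 1.57 on plastic. With rebuilt values it was above 3 SD on 1 of the 2 plastic arrays. The log2 difference in the deposited values was 0.08 (SE 0.17, 95% interval -0.28 to 0.44, limma, adjusted p = 0.72). RXRA shared its lowest time with PPARG, and 12 h was the lowest of the 9 crECM arrays for these 2 of the 6 factors above 5 SD and for 19.1% of all probes (it was the highest for 21.8%). The RXRA difference at 12 h was -0.34 (SE 0.19, limma, adjusted p = 0.42). Across the 9 crECM arrays PPARG and RXRA had a Pearson correlation of 0.81 and a Spearman correlation of 0.78, the highest Pearson value among the 15 pairs of the 6 factors. The points of such a pair come from the same arrays and share their brightness and adjustment.

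GATA3, known for luminal identity in urothelium and breast, was at 45.3 and 52.9 SD on plastic. On crECM it ranged from 34.6 SD on day 8 over a median of 48.7 SD to 54.3 SD on day 1. The values on days 1 to 4 were 49.6 to 54.3 SD and those on days 6 to 8 were 34.6 to 40.0 SD, with 48.7 SD on day 9. The groups overlapped fully, and the log2 difference was -0.12 (SE 0.17, 95% interval -0.50 to 0.25, limma, adjusted p = 0.58).

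FOXA1, a pioneer factor that opens chromatin for nuclear receptors, was at 25.4 and 23.5 SD on plastic and at 24.3 SD (day 8), 28.7 SD (median) and 36.3 SD (day 1) on crECM. On crECM 7 of the 9 arrays were above both plastic arrays, and the 12 h and day 8 arrays lay between them. In raw noise SDs above the peak FOXA1 was at 4.43 and 2.94 on plastic. The log2 difference of 0.26 did not pass (SE 0.15, 95% interval -0.06 to 0.58, limma, adjusted p = 0.17).

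ELF3, which activates epithelial and secretory genes, was the member with the widest range on crECM among these 6 factors, 1.84-fold from lowest to highest. It was at 45.7 and 43.0 SD on plastic. On crECM it was at 40.5 to 51.7 SD from 12 h to day 4 and at 74.6, 68.8, 62.2 and 64.9 SD on days 6, 7, 8 and 9. The 4 latest arrays were thus the 4 highest of the 11, and day 2 was the only crECM array below both plastic arrays. The log2 difference between the groups was 0.32 (SE 0.20, 95% interval -0.11 to 0.76, limma, adjusted p = 0.21). The slope of ELF3 over log2 of the day was 0.13 per doubling of time (SE 0.06, unadjusted p = 0.047 and adjusted p = 0.58 in limma), so the later values did not pass as a trend over all probes. In that fit 0.00466% of all probes were called, which was 1 of 21480, and 1819 had an unadjusted p under 0.05.

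KLF5, known from proliferating and differentiating epithelia, was at 30.2 and 40.8 SD on plastic, a 1.35-fold difference between 2 arrays of the same group. On crECM it ranged from 19.2 SD on day 4 over a median of 26.0 SD to 30.7 SD on day 7. All but 2 of the 9 crECM arrays lay below both plastic arrays. The log2 difference was -0.46 (SE 0.19, 95% interval -0.86 to -0.05), which did not pass after adjustment over all probes (limma, unadjusted p = 0.031, adjusted p = 0.065).

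Seen together on crECM, ELF3 and KLF5 had a Pearson correlation of 0.73 (Spearman 0.72, n = 9 arrays), and GATA3 and ELF3 one of -0.65 (Spearman -0.70). Day 1 was the highest crECM array for PPARG, RXRA, GATA3 and FOXA1. The share of all probes that were highest on day 1 was not computed. The 4 factors share the brightness and adjustment of that array, so no common regulation is read from this. By Pearson correlation over the same 9 arrays and 12323 probes, the genes most like each factor were NCKIPSD and NGLY1 (both 0.96) for PPARG, ORC6 (0.98) and TEFM (0.95) for RXRA, and NUP62 (0.99) and CST3 (0.94) for GATA3. For FOXA1 they were COX6A1P1 (0.96) and ARHGAP31 (0.95), for ELF3 ADGRG1 and DUSP6 (both 0.93), and for KLF5 ZNF106 (0.94) and MAGOHB (0.92). Each is the highest of all probes compared over 9 points, and is given as a description.

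OVOL1 was at the lowest value of the array on both plastic arrays, that is, not detected there. It was above 3 SD on 7 of the 9 crECM arrays, with 4.11 to 4.77 SD from 12 h to day 3, 3.27 SD on day 6, 6.08 SD on day 8 and 7.55 SD on day 9. It was not detected on day 4, where the raw intensity was -2254, or on day 7. The groups therefore overlapped, and with values under 3 SD set to 3 SD the log2 difference was 0.54 (SE 0.31, 95% interval -0.14 to 1.21, limma, adjusted p = 0.18). The raw intensities of OVOL1 were -31.3 and -38 units on plastic and 79.0 to 168 units on the 7 crECM arrays on which it was detected. In raw noise SDs above the peak, 5 of the 9 crECM arrays were between 3.33 and 4.21. The day 4 value was at -65.3 on that scale, far below the noise peak. It was kept at the floor in the fit and does not show that OVOL1 was absent. With rebuilt values and with quantile normalization OVOL1 was above 3 SD on 1 of the 9 crECM arrays and could not be tested. With the deposited values floored at 1 SD or 5 SD its log2 difference was 1.77 or 0.10, and neither passed (limma, adjusted p = 0.061 and 0.61).

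POU2F3 was the only member called between plastic and crECM in the deposited values. Its first probe was at 9.26 and 11.3 SD on plastic and above 3 SD on 3 of the 9 crECM arrays, with 4.02 SD at 12 h, 3.53 SD on day 8 and 4.92 SD on day 9. Its second probe was at 9.03 and 5.49 SD on plastic and under 1 SD on all 9 crECM arrays. All 9 crECM arrays lay below both plastic arrays for both probes, as they did for 24.4% of all probes. No member had all 9 crECM arrays above both plastic arrays, as 22.4% of all probes did.

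The first probe fell by 1.61 on the log2 scale on crECM (SE 0.19, limma, adjusted p = 3.5e-05) and the second fell by 1.23 (SE 0.13, limma, adjusted p = 1.4e-05). With values under 3 SD set to 3 SD these are 3.06-fold and 2.35-fold lower values on the deposited scale. No lower bound is drawn from them, since the plastic intensities lay at the noise peak before adjustment. The second probe was above 3 SD on the 2 plastic arrays only, so the filter kept it through plastic alone. Its 9 crECM values were all at the floor, and its small p-value measures no spread on crECM. These 2 of the 9 probes, or 1 of the 8 genes, were called, where 45.2% of all probes were called, 22.8% higher and 22.4% lower on crECM. The first probe also met the on-off criterion of a mean log10 value above 1 on plastic and below 0 on crECM, which 0.41% of all probes met. None met the off-on criterion, which 3.97% of all probes met.

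The raw intensities of POU2F3, before any adjustment between arrays, were not lower on crECM throughout. The first probe had 51.4 and 56.9 units on plastic, against -30.0 to 128 units on crECM, and was higher than on either plastic array on 6 of the 9 crECM arrays. The second had 49.7 and 21.0 units on plastic and 23.4 to 72.4 units on crECM. On plastic these intensities lay 0.58 and 0.60 raw noise SDs above the peak for the first probe, and 0.53 above and 0.18 below it for the second. Probes with a deposited value near 3 SD had a median raw intensity of 13.7 and 9.8 units on plastic, which was below the noise peak, and of 51.6 to 135 units on crECM. The slope of the deposited on the raw values, both as log10, was 0.70 and 0.67 on plastic and 0.99 to 1.43 on crECM. When the values were rebuilt from the raw intensities neither probe was above 3 SD on 2 arrays, and POU2F3 could not be tested. Under quantile normalization, which gives all arrays the same distribution, both probes were lower on crECM, at -1.17 and -0.66 on the log2 scale (limma, adjusted p = 1.5e-08 and 0.0030). There 0 of the 9 crECM arrays were above 3 SD for either probe. The crECM group was thus at the floor with no spread, which makes these p-values small. The part of the adjustment between arrays in the POU2F3 difference was not tested further.

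**Figure D2:**
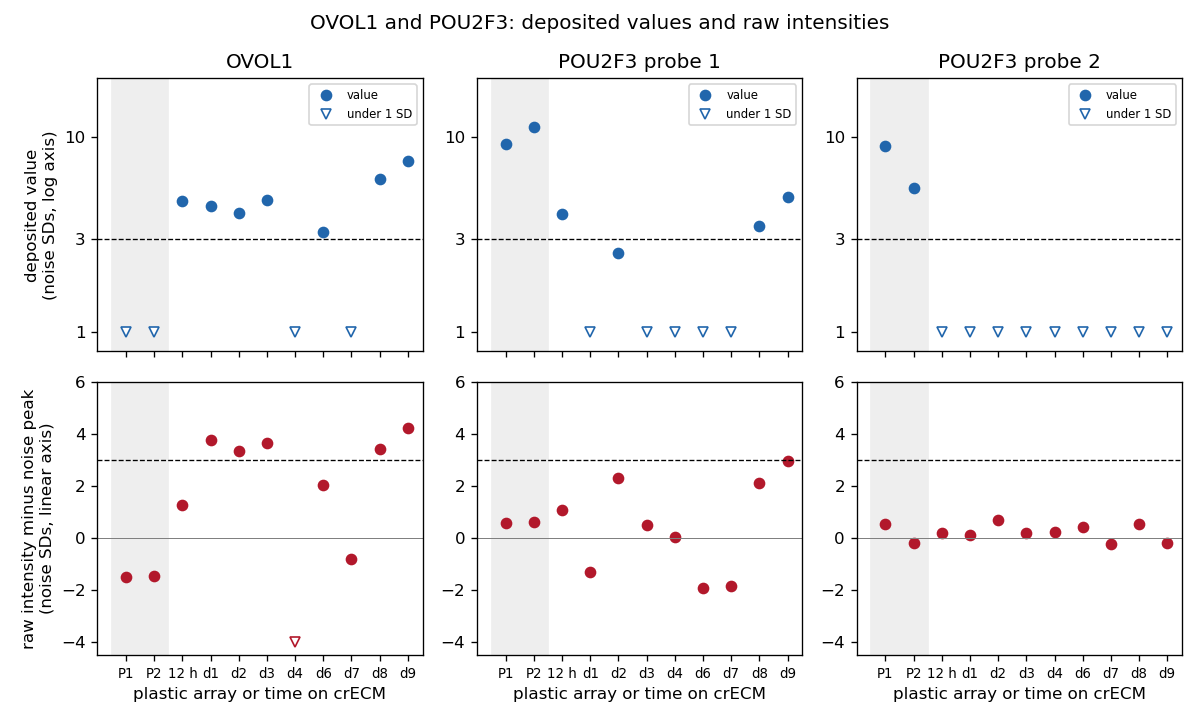
Deposited values in noise SDs (upper row, log axis) and raw intensities as noise SDs above the noise peak (lower row, linear axis) of OVOL1 and the 2 POU2F3 probes on the 11 arrays, with P1 and P2 on plastic shaded and the dashed line at 3 SD. Open triangles mark deposited values under 1 SD and, in the lower row, 1 value below the axis. POU2F3 is at 5.49 to 11.3 deposited SDs on plastic but within 0.60 raw SD of the peak there.

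With noise peak, SD and regression computed anew, RXRA was 1.20 higher on crECM on the log2 scale (limma, adjusted p = 0.00059), FOXA1 1.02 (adjusted p = 0.00021) and ELF3 0.55 (adjusted p = 0.012). In that fit the median of all probes was 0.68, with 56.6% called higher and 6.61% lower. PPARG was at -0.04, GATA3 at 0.05 and KLF5 at 0.05, none of them called (limma, adjusted p = 0.80 to 0.87), so that GATA3 and KLF5 turned from below to above 0. Relative to this median RXRA was at 0.52, FOXA1 at 0.34 and ELF3 at -0.13, and PPARG, GATA3 and KLF5 were at -0.72, -0.64 and -0.63. Without the regression step 79.7% of all probes were called higher and 0.312% lower. Under quantile normalization, with 15.3% called higher and 18.4% lower, none of the 6 factors was called, and the RXRA difference turned to -0.15 (limma, adjusted p = 0.46). The signs of the PPARG, RXRA, GATA3 and KLF5 differences, and that of ELF3 relative to all probes, thus depended on the scaling. PPARG was above 0 only without the regression step, at 0.71, where the median of all probes was 1.23. Relative to the median of all probes, FOXA1 was above it with the deposited and the rebuilt values (0.21 and 0.34). PPARG, GATA3 and KLF5 were below it with both, at -0.37, -0.18 and -0.51 with the deposited values.

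**Figure D3:**
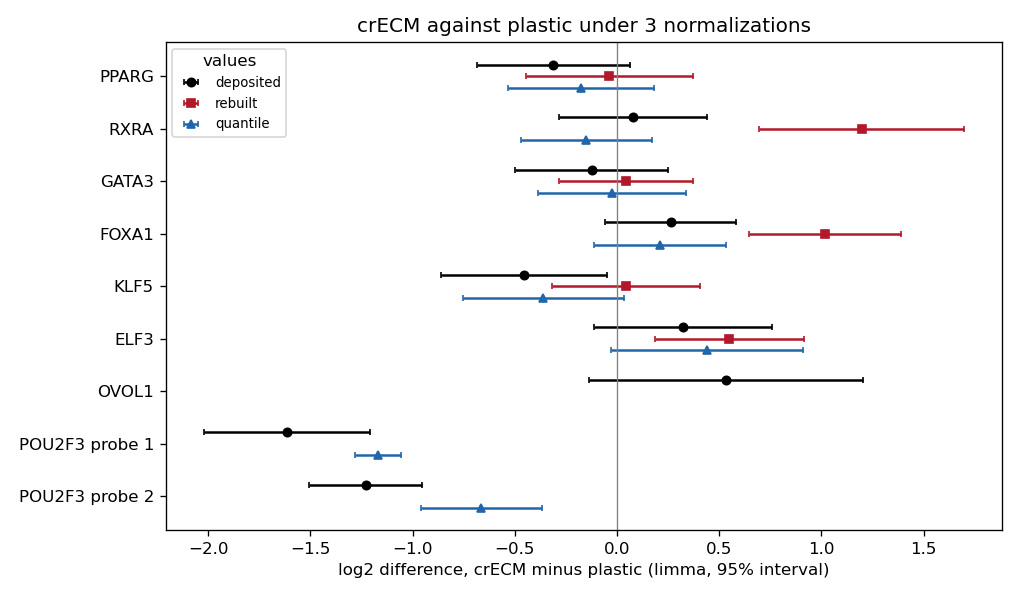
Log2 difference between crECM and plastic with its 95% interval (limma) for the 9 probes, from the deposited values, from values rebuilt from the raw intensities and from quantile normalization, with a floor of 3 noise SDs. Missing symbols were not above 3 SD on 2 arrays. RXRA and FOXA1 are at 1.20 and 1.02 only in the rebuilt values, and POU2F3 is at -1.61 and -1.23 in the deposited values.

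The genes with which these factors work were compared with the same fit, 1 probe per gene. Over 8 lists, 36 genes were higher on crECM, 46 were lower and 92 did not pass, out of 174 tested. With the rebuilt values 79 were higher and 14 lower of 152, so the split of directions differed between the scalings. The 82 called genes were 47.1% of those tested, near the 45.2% of all probes (22.8% higher and 22.4% lower), so the counts below describe the lists and set none of them apart. The median log2 difference of all probes was 0.06. On plastic, POU2F3 values of 5.49 to 11.3 deposited SDs lay within 0.60 raw noise SD of the peak. On plastic, RXRA at 18.0 and 16.8 deposited SDs lay at 2.47 and 1.57 raw noise SDs, and FOXA1 at 23.5 lay at 2.94. Plastic values in this range can thus lie under 3 raw noise SDs. This also limits rises from such values, as those of FOXA3 and SOX9. Falls from plastic values below 11.3 SD share the limit of POU2F3. Among them are those of PPARGC1A, TXNIP, ABCG1, ELF2, XBP1, TFAP2C, ERBB2, PKP1 and SFN. The raw intensities of these genes, and those of FOXA3 and SOX9, were not examined here. PPARGC1A, TXNIP, ELF2, TFAP2C and ERBB2 were above 3 SD on both plastic arrays and on none of the 9 crECM arrays. The filter thus kept them through plastic alone. Their crECM values were all at the floor, so their small p-values below measure no spread on crECM.

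Among receptors that pair with RXRA and coregulators of PPARG, 6 genes were higher, 5 lower and 7 did not pass, with a median of 0.38 (12 higher and 2 lower of 17 with rebuilt values). RXRB, another retinoid X receptor, was not detected on plastic and was at 9.99 to 27.0 SD on crECM, at least 6.31-fold higher on the deposited scale (limma, adjusted p = 3.5e-05). CREBBP, a histone acetyltransferase, was above 3 SD on 1 of the 2 plastic arrays. It was at least 5.92-fold higher on crECM on that scale (limma, adjusted p = 0.0043). PPARGC1A, the coactivator of mitochondrial genes, was at 7.40 SD on plastic and not detected on crECM, 2.47-fold lower on the deposited scale with the floor (limma, adjusted p = 5.3e-09), and could not be tested with rebuilt values. The corepressor NRIP1 fell from 58.3 to 32.7 SD (limma, adjusted p = 0.00027), far above noise on every array. RXRB, CREBBP and NRIP1 kept their direction and passed with rebuilt values, at 1.38, 2.10 and -0.70 on the log2 scale.

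Among target genes of PPAR and RXR receptors 4 were higher, 7 lower and 13 did not pass, with a median of -0.16 (10 higher and 2 lower of 20 with rebuilt values). CIDEC and ADIPOQ, a lipid droplet protein and a fat cell hormone, were not detected on plastic and at 10.3 to 21.8 and 6.73 to 17.5 SD on crECM (limma, adjusted p = 1.7e-05 and 0.00064). TXNIP, a regulator of glucose uptake, and ABCG1, a cholesterol transporter, had 5.96 and 5.94 SD on plastic and were at or near the limit of detection on crECM (limma, adjusted p = 6.3e-09 and 7.2e-08). With rebuilt values CIDEC was still called (1.26, limma, adjusted p = 0.0044), ADIPOQ was not (0.77, adjusted p = 0.052), and TXNIP and ABCG1 could not be tested.

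Relatives of the members from the same families counted 6 higher, 7 lower and 12 that did not pass (median 0.13), against 14 higher and 0 lower of 23 with rebuilt values. SPDEF, an ETS factor of secretory cells, was not detected on plastic and was above 3 SD on 8 of 9 crECM arrays (log2 difference 1.90, limma, adjusted p = 0.015). FOXA3 rose from 13.6 to 22.1 SD (0.70, limma, adjusted p = 0.0038). KLF9 fell by 0.71 (limma, adjusted p = 0.00081), which with rebuilt values was -0.15 and did not pass. ELF2 had 4.57 SD on plastic and was not detected on crECM (-0.61, limma, adjusted p = 2.5e-05).

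Of other factors of squamous and glandular epithelia 4 were higher, 3 lower and 14 did not pass (median 0.12), against 13 higher and 2 lower of 19 with rebuilt values. CEBPA, a factor of differentiating cells, was at 14.8 to 40.0 SD on crECM and above 3 SD on 1 of 2 plastic arrays (2.24, limma, adjusted p = 0.00053). SOX9, a progenitor factor, rose by 1.70 (limma, adjusted p = 0.013). XBP1, a factor of secretory cells, and TFAP2C were at 7.59 and 5.14 SD on plastic and fell by 1.23 and 0.78, with XBP1 above 3 SD on 1 of 9 crECM arrays and TFAP2C on none (limma, adjusted p = 0.0010 and 1.2e-06).

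Among urothelial and luminal genes 3 were higher, 7 lower and 16 did not pass (median -0.12), against 6 higher and 3 lower of 20 with rebuilt values. PSCA, a surface protein of umbrella cells, and CLDN3, a tight junction protein, were not detected on plastic and rose on crECM by 2.10 and 1.85 (limma, adjusted p = 0.00056 and 0.011). The receptor kinase ERBB2 had 7.39 SD on plastic and was not detected on crECM (-1.30, limma, adjusted p = 5.8e-08). At such deposited values on plastic POU2F3 lay at the noise peak. CDH1, the epithelial cadherin, fell from 36.2 to 16.8 SD (-1.11, limma, adjusted p = 0.033), and with rebuilt values the difference was -0.56 and did not pass.

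Basal genes and targets of TP63 counted 2 higher, 6 lower and 14 that did not pass (median -0.06), against 7 higher and 2 lower of 18 with rebuilt values. The Notch ligand JAG2 and the cornified envelope protein EVPL rose by 1.07 and 0.89 (limma, adjusted p = 0.0017 and 0.034), and both were also called with rebuilt values. PKP1, a desmosomal plakophilin, and SFN, a 14-3-3 protein of stratified epithelia, had 8.12 and 7.09 SD on plastic and fell by 1.43 and 1.24 to the limit of detection (limma, adjusted p = 8.9e-08 and 1.4e-07).

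Tuft cell genes, the program tied to POU2F3, were 4 higher, 4 lower and 7 that did not pass (median 0.23), against 6 higher and 1 lower of 14 with rebuilt values. GFI1B and PTGS1 were not detected on plastic and rose by 1.21 and 1.15 (limma, adjusted p = 0.012 and 0.036). GNAT3, a taste G protein, and IL25, a tuft cell cytokine, fell by 0.97 and 0.93 (limma, adjusted p = 0.0063 and 0.0017), and none of the 3 of these genes that could be tested with rebuilt values, GFI1B, PTGS1 and IL25, was called there.

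Among the 23 markers of other cell types 7 were higher, 7 lower and 9 did not pass (median 0.35), against 11 higher and 2 lower of 21 with rebuilt values. Their summed level was 423 to 436 SD on plastic and 435 to 489 SD on crECM. CD3E, of T cells, was at 5.20 SD on plastic and 26.8 to 37.0 SD on crECM (2.64, limma, adjusted p = 1.4e-08). PDGFRB was not detected on plastic and rose by 1.85, whereas THY1 fell by 1.65 and COL1A2 by 1.24 (limma, adjusted p = 0.0002, 0.0064 and 4.2e-09). The part of such probe signal in the changes of the epithelial lists was not tested.

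At 12 h 10 of the 174 genes of these lists were called, 5.75%, near the 6.23% of all probes. Named after their values were seen, the coactivator EP300 (-0.67), the ETS factor EHF (-0.57), SOX2 (-1.47), CEBPB (-1.95), HES1 (-1.41) and the endothelial CDH5 (-0.75) were lower at 12 h. FGFR3 (1.10), DST (0.76), CD44 (0.39) and HBA1 (0.39) were higher. The adjusted p in limma was at most 0.043 for each of them. None of the 24 tested target genes of PPAR and RXR receptors was called at 12 h by limma, with 4 at an unadjusted p under 0.05. The slope over log2 of the day passed limma's test for no gene of the lists, with 14 of 174 at an unadjusted p under 0.05.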

How the data were processed

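Cy3-labeled cDNA of RT4 cells on plastic (2 arrays) and crECM (9 arrays) was hybridized to spotted long oligonucleotides. The authors deposited a raw intensity for each probe and array. They also deposited log10 values, made by expressing intensities in SDs of the noise peak above a zero point, taking log10 and adjusting arrays by robust linear regression. The quantification software and its settings are not given in the sources used here. Groups and times were read from the sample titles.

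Of 22464 probes, 17043 had 1 gene symbol, 172 several and 5249 none, and 16952 were matched by gene identifier to RefSeq names of GRCh38.p14, with 0 symbols changed. For the members, the deposited value differed by at most 0.016 on the log10 scale from that of probes with like raw intensity.

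Log2 of the deposited values, floored at 3 SD, was fitted with limma 3.58.1 in R 4.3.3 (eBayes with a trend) over the 21480 probes above 3 SD on at least 2 arrays, with Benjamini-Hochberg adjustment. A fold written as "at least" is a bound on the deposited scale only, with the lower group, or 1 of its arrays, at the floor. Where a whole group is at the floor it has no spread and standard errors are small. The lowest deposited value was 1 constant on each array, shared by 1175 to 2651 probes, and has no order below it. The number of arrays limits the precision.

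For values rebuilt from the raw intensities, the noise peak was the highest kernel density between -50 and 100 units and its SD came from the lower side. The fit was tested on simulated data with known changes. The alternatives were other scalings, floors, filters and array weights, and leaving out arrays. Python 3.11.15 with numpy 2.4.6, pandas 2.3.3, scipy 1.17.1 and statsmodels 0.14.6 was used for counts.

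Named were all member probes, up to 2 genes in each direction with the largest called difference from each list, and the 2 genes most correlated with each member above 5 SD on all arrays. A list uses the probe with the highest mean for each gene. The members and lists were chosen with earlier results of these data known.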

Additional observations from a re-analysis of the deposited data

Results flagged for a closer look

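PPARG at 12 h on crECM stood apart from the other 8 crECM arrays. Its value was 24.5 SD, and the next lowest was 33.1 SD on day 8. On the log10 scale this gap was 0.53 of the whole range of the 9 crECM arrays. That was above the critical share for 9 samples, and the share was not computed on the linear scale. Of 8 probe series examined in this way 1 was marked, where chance marks about 1 in 20, or 0.4 of 8.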

How the results depend on the processing

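The 2 called POU2F3 probes became 0 called probes with no floor or with a filter of 5 SD on at least 6 arrays, and 1 when either plastic array was left out, since the second probe was then not tested. With no floor the differences were -8.64 and -7.70 (limma, adjusted p = 0.27 and 0.20). Quantile normalization kept both, at -1.17 and -0.66, with every crECM value at the floor. The 1 probe meeting the on-off criterion was 0 with rebuilt values and 0 with quantile normalization. With values rebuilt without the regression step 6 probes were called between plastic and crECM, and PPARG (0.71), GATA3 (0.77) and KLF5 (0.83) changed sign, but the median of all probes was shifted by 1.23 there and relative to it they were at -0.52, -0.46 and -0.40. The same values gave 4 calls at 12 h, also among the comparisons of each day. The 1 call at 12 h, PPARG, became 0 with a floor of 5 SD, with no floor and with the stricter filter, and 0 without the day 7 array, an alternative chosen after seeing the data. In the comparisons of each day it was the 1 call and was lost in the same 3 settings. No trend was called under any alternative. Over the lists, 82 calls (36 higher, 46 lower) became 93 (79 higher, 14 lower) with rebuilt values. Over all probes, the counts of 4901 higher and 4815 lower became 10972 and 1283 with rebuilt values, 15566 and 61 without the regression step, and 3178 and 3809 with quantile normalization. No paired analysis was possible because only the plastic arrays carry replicate numbers. Signal near the noise peak limits OVOL1, POU2F3, the plastic values of RXRA and list genes with low plastic values. Each time on crECM has 1 array.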
